A study of Mus musculus with 6 samples.

Results

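Collagens and other matrix genes were examined by RNA-seq of CD11c+ cells isolated from mouse liver, where CD11c marks dendritic cells and some macrophages. The 59 genes were chosen by name: all 44 genes named as collagen chains, and Fn1, Sparc, Ecm1, Dcn, Lum, Bgn, Lox, Loxl1, Loxl2, Lrat, Reln, Des, Pdgfrb, Rgs5 and Colec11. They are 59 of the 31426 genes in the deposited table of counts. The study compared 3 Atg5 CD11cKO libraries, numbered 25, 26 and 27, with 3 WT libraries, numbered 21, 22 and 23, to find out what loss of the autophagy gene Atg5 in CD11c+ cells changes under high-fat diet (HFD). Atg5 CD11cKO mice were Atg5 flox/flox animals that carry Cre under the Itgax (CD11c) promoter, and WT mice were littermates with floxed Atg5 alleles, so both groups carried the floxed gene. The labels give the strain as C57BL/6, and the study's methods give C57BL/6J for the Atg5 flox/flox mice. Animals were given an age of 4 to 8 weeks in the labels, and were fed HFD for 14 weeks. Animals were male, livers were digested with collagenase, and 10 ng of RNA entered each library. The study's RNA-seq methods give magnetic isolation of CD11c+ cells with CD11c beads and name no CD45 gate. Its flow cytometry summary describes sorting of live CD45+ CD11c+ cells from each mouse. The Itgax promoter drives Cre in CD11c-expressing cells, dendritic cells and macrophages among them. The labels do not tie the libraries to animals, so the p-values measure the spread between libraries, which may be technical.

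Collagens are triple-helical matrix proteins. Collagens I and III form fibrils, collagen IV forms the network of basement membranes, and collagen VI forms beaded filaments. In liver, hepatic stellate cells, the vitamin A-storing pericytes of the sinusoids, are known as the main source of fibril collagen in fibrosis, and Lrat, Reln and Des are among the genes used to recognise them. Macrophages are known to make fibronectin and some other matrix proteins and to take up collagen fragments.

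The 6 libraries held 31064570 to 34034675 estimated counts each. Atg5 itself was at 21.3, 21.0 and 20.8 CPM (a gene's counts relative to the TMM-scaled size of its library) in Atg5 CD11cKO 25, 26 and 27, against 54.0 and 49.8 CPM in WT 21 and 22 and 22.1 CPM in the library labelled WT 23, which went against its label. Over all genes, the chi-square per gene between 2 libraries was 5.93 to 10.2 for any pair among the Atg5 CD11cKO libraries and the library labelled WT 23 and for WT 21 with WT 22, and 208 to 216 for every other pair. Itgax, the gene of CD11c, was at 464 to 492 CPM in Atg5 CD11cKO libraries and 432 to 472 CPM in WT libraries. Markers of hepatocytes and of pancreatic acinar cells followed the same division in their summed CPM, while those of cholangiocytes and of mesothelial, stellate, fibroblast and mural cells did not. The 18 hepatocyte markers summed to 346 to 354 CPM in Atg5 CD11cKO libraries, against 1935 and 1885 CPM in WT 21 and 22 and 340.2 CPM in WT 23. The 15 pancreatic acinar markers summed to 334 to 349.6 CPM in Atg5 CD11cKO libraries, against 15582 and 15289 CPM in WT 21 and 22 and 324 CPM in WT 23. No gene of either list was at 0 in any library. The comparisons are therefore given over the 6 libraries as labelled and without the library labelled WT 23.

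Most of the 59 genes were low in these cells. Fn1, Ecm1 and Col18a1 reached 20 CPM in at least 1 library, 11 more reached 5 CPM, 19 had their highest library between 1 and 5 CPM, and 26 stayed under 1 CPM in all libraries. Without WT 23, 43 of the 59 passed the filter on low counts, and the 16 that did not pass (15 collagens and Loxl1) had highest levels of 0.148 to 0.535 CPM. Over 6 libraries, 40 passed. A gene with 0 counts, such as Col5a2 in WT 21, could still be present at up to 0.0933 CPM, the level of 3 counts in that library. The 6 markers of stellate cells and pericytes among the 59 (Lrat, Reln, Des, Pdgfrb, Rgs5 and Colec11) were all detected in every library and none exceeded 1.48 CPM in any. Each had between 2 and 50 counts in every library. The defining markers of stellate cells were thus near the limit of detection, and the genes are described by name and class and not as the profile of a cell type.

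In the 6 libraries as labelled, edgeR's quasi-likelihood test called 0 of the 40 tested members, where it called 0 of 17499 genes (0%). At an unadjusted p under 0.05, 4 members were higher and 2 lower in Atg5 CD11cKO libraries, where 5.21% of all genes were higher and 9.17% lower. DESeq2 called 1 member higher (Col1a1) and 1 lower (Col18a1), where it called 0.239% of the 15452 genes to which it gave an adjusted p higher and 1.97% lower. The levels of the groups did not overlap for 6 members that were higher in Atg5 CD11cKO libraries, which is 15% of the 40, where 9.58% of all genes were so placed. These were Col1a1, Col4a2, Col6a2, Col15a1, Dcn and Ecm1. Only Col17a1 was lower without overlap, 2.5% of the 40, where 8.73% of all genes were so placed.

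Without the library labelled WT 23, 10 of 43 members were higher (23.3%) and 2 lower (4.65%) in Atg5 CD11cKO libraries, where 15.9% of 18241 genes were higher and 15.1% lower. In either direction 27.9% of the members were called, against 31% of all genes. The median log2 fold change over the 43 members was 0.80, against -0.01 over all genes. It was positive for 32 of the 43, where it was positive for 8926 of all 18241 genes. Fn1, Ecm1, Sparc, Bgn, Lum, Col1a1, Col3a1, Col4a1, Col4a2 and Lox rose, and Col17a1 and Col18a1 fell. Lum and Lox lie below the 5 CPM that the rule for naming called genes asked for and are named after their values had been seen. The plot of log2 fold changes by class shows both comparisons.

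**Figure D1:**
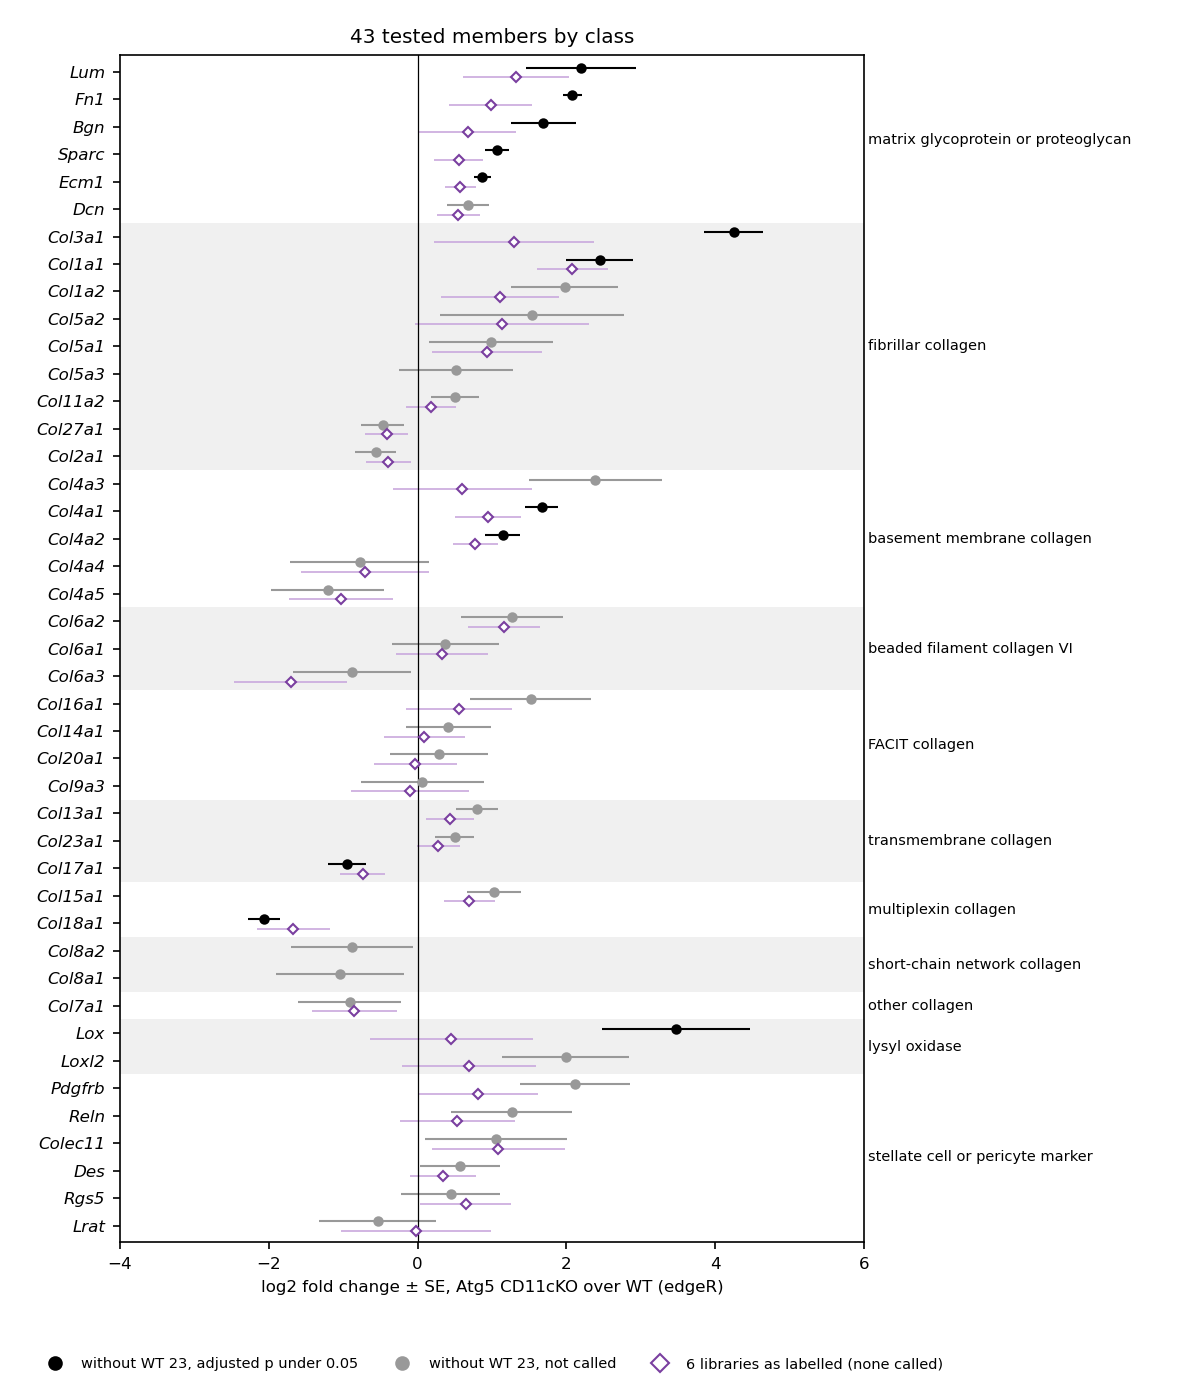
Log2 fold change (x axis, Atg5 CD11cKO over WT, edgeR, bars ± SE) of the 43 members tested without the library labelled WT 23, grouped by class. Black circles passed the adjusted test without WT 23 and grey circles did not, and open diamonds are the 40 members tested over 6 libraries as labelled, of which 0 passed. Lox and Col3a1 moved most between the comparisons, at 3.47 and 4.25 without WT 23 and 0.45 and 1.30 over 6 libraries, while Col1a1 was at 2.45 and 2.08.

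Matrix glycoproteins and proteoglycans held the 3 highest levels per kilobase of exon in Atg5 CD11cKO libraries. Of these 6 genes, 5 rose without WT 23 and none fell (83.3%, where 31% of all genes were called, 15.9% as higher). Their median log2 fold change was 1.38, against -0.01 over all genes. Fn1, which encodes fibronectin, was at 100.1, 74.6 and 82.0 CPM in Atg5 CD11cKO 25, 26 and 27, against 20.2 and 20.4 CPM in WT 21 and 22 and 89.3 CPM in WT 23. All 3 Atg5 CD11cKO libraries were thus above WT 21 and 22, and WT 23 lay within the Atg5 CD11cKO range. The log2 fold change of Fn1 was 2.08 ± 0.12 (SE, adjusted p = 1.61e-07) without WT 23 and 0.98 ± 0.56 (adjusted p = 0.404) over 6 libraries. As the samples are bulk RNA, a change in the number of cells of a type and a change in RNA per cell cannot be told apart. This holds for Fn1 and for any other gene here. Fn1 alone held 38.8%, 32.7% and 34.7% of the summed CPM of all 59 members in Atg5 CD11cKO libraries, against 16.1% and 15.7% in WT 21 and 22 and 36.8% in WT 23. The 9 markers of lipid-associated macrophages moved with these genes. They summed to 6995 to 7021 CPM in Atg5 CD11cKO libraries, against 1836 and 1821 CPM in WT 21 and 22 and 6932 CPM in WT 23, none was at 0, and their part in the result was not tested.

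Ecm1, which encodes a secreted glycoprotein that binds several matrix proteins, had 39.4, 37.4 and 44.7 CPM in Atg5 CD11cKO libraries, against 21.2 and 23.2 CPM in WT 21 and 22 and 37.0 CPM in WT 23. Its groups did not overlap in 6 libraries, although WT 23 lay just under the lowest Atg5 CD11cKO library. Its log2 fold change was 0.87 ± 0.11 (adjusted p = 0.000121) without WT 23 and 0.58 ± 0.21 (adjusted p = 0.341) over 6 libraries. Sparc, which encodes the collagen-binding protein osteonectin, had 19.3, 16.6 and 17.1 CPM, against 9.36 and 7.52 CPM in WT 21 and 22 and 19.3 CPM in WT 23. It rose by a log2 fold change of 1.07 ± 0.16 (adjusted p = 0.000398) without WT 23, whereas WT 23 was level with the highest Atg5 CD11cKO library.

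The small leucine-rich proteoglycans Bgn, Dcn and Lum encode biglycan, decorin and lumican, which bind collagen fibrils. Bgn had 3.75, 5.32 and 5.73 CPM in Atg5 CD11cKO libraries, against 2.33 and 0.740 CPM in WT 21 and 22 and 6.21 CPM in WT 23, the highest of the 6. It rose without WT 23 (log2 fold change 1.69 ± 0.43, adjusted p = 0.0117), and without Atg5 CD11cKO 27 as well the adjusted p was 0.0514. Dcn was the steadiest gene among the Atg5 CD11cKO libraries, at 6.09, 6.02 and 6.45 CPM, against 5.13 and 2.63 CPM in WT 21 and 22 and 4.93 CPM in WT 23. The groups did not overlap, but the log2 fold change of 0.68 ± 0.29 did not pass (adjusted p = 0.0976). Lum had 0.513, 1.50 and 0.723 CPM, against 0.124 and 0.266 CPM in WT 21 and 22 and 0.700 CPM in WT 23. It rose by 2.20 ± 0.74 on the log2 scale (adjusted p = 0.0425) without WT 23. That call was lost when WT 21, WT 22, Atg5 CD11cKO 26 or Atg5 CD11cKO 27 was also left out, with adjusted p of 0.0583 to 0.178, and also with no filter and with limma-voom, and with the filter of 1 CPM Lum was not tested.

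**Figure D2:**
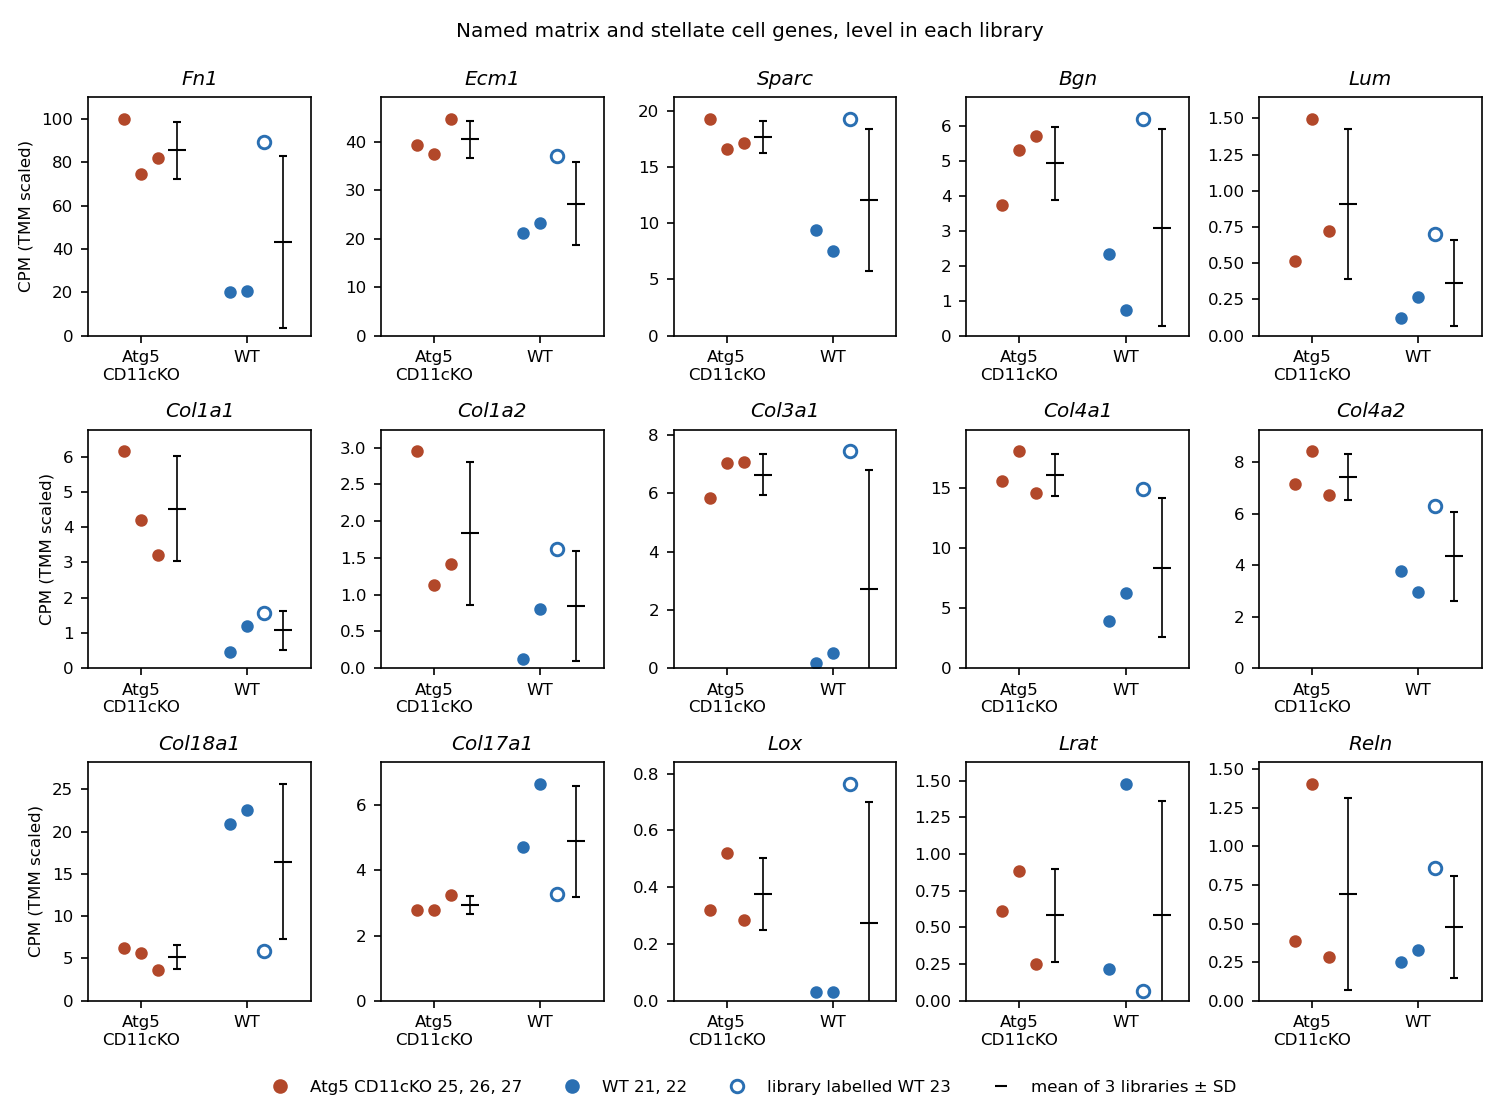
Level (y axis, CPM, TMM scaled, from 0) of 15 genes in each library, with Atg5 CD11cKO at the left and WT at the right of each panel. Filled points are libraries, the open point is the library labelled WT 23, and bars are the mean of 3 libraries ± SD, cut off at 0. The open point lies near the Atg5 CD11cKO points for Fn1, Sparc, Col3a1, Col4a1, Col18a1 and Col17a1, but near the other WT points for Col1a1.

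Of the 11 fibrillar collagens, 9 were tested without WT 23. Of these, 2 rose and none fell (22.2%, where 31% of all genes were called, 15.9% as higher). Col3a1, the chain of collagen III (chromosome 1 of mm10, from 45311538 to 45349706), had 182, 230 and 225 counts in Atg5 CD11cKO libraries, against 6 and 17 counts in WT 21 and 22 and 234 counts in WT 23. As levels these were 5.83, 7.03 and 7.08 CPM, against 0.187 and 0.503 CPM and, in WT 23, 7.45 CPM. Col3a1 thus had the largest log2 fold change among the 43 tested members without WT 23, at 4.25 ± 0.40 (adjusted p = 8.63e-06), a 19.0-fold difference. Over 6 libraries it was 1.30 ± 1.07 (adjusted p = 0.546), with WT 23 above all 3 Atg5 CD11cKO libraries.

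Col1a1, the major chain of collagen I (chromosome 11, from 94936224 to 94953042), did not follow that division. It had 192, 138 and 102 counts in Atg5 CD11cKO libraries, against 15, 40 and 49 counts in WT 21, 22 and 23. Its levels were 6.15, 4.22 and 3.21 CPM, against 0.467, 1.18 and 1.56 CPM. All Atg5 CD11cKO libraries were above all WT libraries, and WT 23 was at 0.345 of the Atg5 CD11cKO mean. The log2 fold change was 2.45 ± 0.45 (adjusted p = 0.00159) without WT 23 and 2.08 ± 0.48 over 6 libraries, where the unadjusted p was 0.00296 and the adjusted p was 0.338. With DESeq2 over 6 libraries the adjusted p was 0.00671. Of the 12 called members, Col1a1 was the only one for which WT 23 was nearer to the mean of WT 21 and 22 than to the Atg5 CD11cKO mean. The other 11 were 91.7% of the called members, where 93.7% of all 5655 called genes had WT 23 nearer to the Atg5 CD11cKO mean. Among the 43 tested members the share was 72.1%, where it was 73.8% of all genes tested.

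Col1a2, the second chain of collagen I, had 2.95, 1.13 and 1.42 CPM in Atg5 CD11cKO libraries, against 0.124 and 0.799 CPM in WT 21 and 22 and 1.62 CPM in WT 23. WT 23 was above Atg5 CD11cKO 26 and 27, and the log2 fold change of 1.98 ± 0.71 without WT 23 just missed the threshold (adjusted p = 0.0572). It passed with the filter of 1 CPM, with DESeq2, on the deposited normalized values and without WT 22 as well, with adjusted p of 0.00666 to 0.0412. Summed over Col1a1, Col1a2 and Col3a1, collagens I and III were at 14.9, 12.4 and 11.7 CPM, against 0.778 and 2.49 CPM in WT 21 and 22 and 10.6 CPM in WT 23. These sums did not overlap, and the two-sided exact permutation test over 3 against 3 libraries gave p = 0.1, the smallest it can give. Of the other fibrillar chains, Col5a1, Col5a2, Col5a3, Col11a2, Col2a1 and Col27a1 were tested and not called, with log2 fold changes of -0.56 to 1.54 without WT 23.

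Per kilobase of annotated exon, the chains of collagen I and III did not keep a fixed ratio. Col1a1 exceeded Col1a2 3.95-, 7.06- and 4.29-fold in Atg5 CD11cKO libraries, against 7.10-, 2.80- and 1.82-fold in WT 21, 22 and 23. The ratio of WT 21 rested on 15 and 4 counts, with an exact 95% interval of 2.26 to 29.4. The exact 95% intervals of Atg5 CD11cKO 25 and WT 23 were 3.07 to 5.12 and 1.20 to 2.75 and did not overlap, and these intervals cover counting error only. The absolute ratio depends on the exon lengths used, 6563 bases for Col1a1 and 12426 bases for Col1a2, which count every annotated exon. Col3a1 stood at 0.634, 1.11 and 1.47 of Col1a1 in Atg5 CD11cKO libraries, against 0.267 and 0.284 in WT 21 and 22 and 3.19 in WT 23. WT 23 thus had the highest share of Col3a1 of the 6 libraries, and its interval of 2.34 to 4.44 lay above those of all 3 Atg5 CD11cKO libraries.

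**Figure D3:**
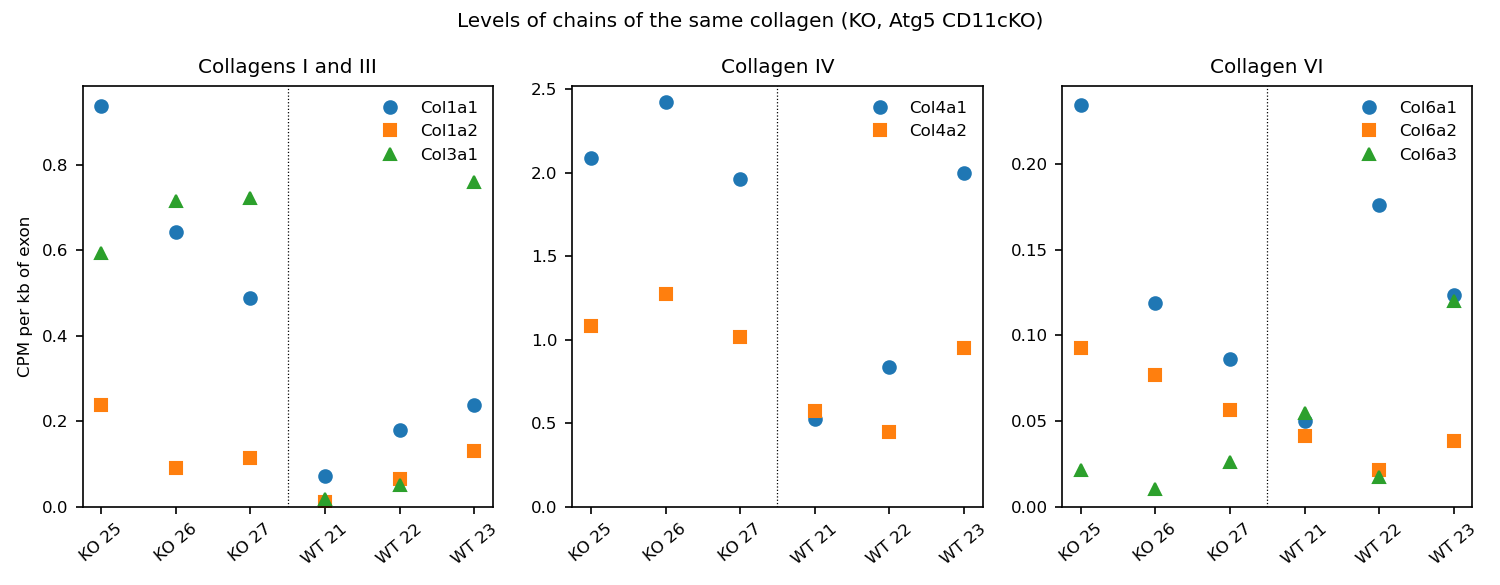
Level per kilobase of exon (y axis, CPM per kb, from 0) of chains of the same collagen in each library (x axis; KO, Atg5 CD11cKO), with a dotted line between the groups. Col4a1 lay near 1.9 times Col4a2 in all libraries except WT 21, where the ratio was 0.916, and in WT 23 Col3a1 was far above Col1a1, at 3.19 times its level.

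Col4a1 and Col4a2 encode the 2 chains of the common collagen IV network and lie head to head on chromosome 8 of mm10, from 11198423 to 11312826 on the minus strand and from 11312805 to 11449287 on the plus strand. Their RefSeq promoter windows (GRCm38.p6, 250 bases before to 50 bases after each start, 5′ to 3′ on each gene's own strand) share 78 bases. The windows of these 2 genes are shown because the pair rose together, and that of Col3a1 because it had the largest log2 fold change, and capitals mark CCAAT and TATAAA on either strand.
Col4a1 (chr8:11312777-11313076, minus strand): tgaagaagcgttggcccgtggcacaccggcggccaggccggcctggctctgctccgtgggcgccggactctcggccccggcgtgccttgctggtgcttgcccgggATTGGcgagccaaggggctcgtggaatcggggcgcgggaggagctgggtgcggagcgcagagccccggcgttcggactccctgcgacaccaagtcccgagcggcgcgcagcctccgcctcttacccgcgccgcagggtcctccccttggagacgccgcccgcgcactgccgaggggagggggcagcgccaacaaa
Col4a2 (chr8:11312555-11312854, plus strand): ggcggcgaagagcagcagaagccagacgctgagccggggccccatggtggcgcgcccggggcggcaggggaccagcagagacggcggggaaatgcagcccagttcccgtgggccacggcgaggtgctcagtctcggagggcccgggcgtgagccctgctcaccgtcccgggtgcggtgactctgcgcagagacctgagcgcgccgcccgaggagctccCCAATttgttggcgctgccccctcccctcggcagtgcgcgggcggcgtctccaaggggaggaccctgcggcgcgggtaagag
Col3a1 (chr1:45311288-45311587, plus strand): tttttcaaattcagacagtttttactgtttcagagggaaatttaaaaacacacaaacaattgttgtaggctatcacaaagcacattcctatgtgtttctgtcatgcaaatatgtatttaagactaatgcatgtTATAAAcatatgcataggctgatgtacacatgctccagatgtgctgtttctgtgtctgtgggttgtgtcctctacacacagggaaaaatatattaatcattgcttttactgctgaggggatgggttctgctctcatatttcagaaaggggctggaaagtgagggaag
The box of Col4a1 begins 145 bases before its start and that of Col4a2 begins 32 bases before its own, and of these the first lies outside the shared stretch while the second reaches it with its last base. Col3a1 holds TATAAA 117 bases before its start and no CCAAT. RefSeq gave 46 such windows for 43 of the 59 members. CCAAT (or its reverse, ATTGG) was in 15 of the 46, or 32.6%, where 37.4% of all 32851 windows held it, and TATAAA (or TTTATA) was in 6, or 13%, where 13.6% of all windows did.

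Col4a1 had 15.6, 18.1 and 14.6 CPM in Atg5 CD11cKO libraries, against 3.92 and 6.25 CPM in WT 21 and 22 and 14.9 CPM in WT 23. Col4a2 had 7.15, 8.44 and 6.73 CPM, against 3.80 and 2.96 CPM in WT 21 and 22 and 6.30 CPM in WT 23. Both were highest in Atg5 CD11cKO 26, and WT 23 lay within the Atg5 CD11cKO range for Col4a1 and just under it for Col4a2. Without WT 23 the log2 fold change was 1.67 ± 0.22 for Col4a1 (adjusted p = 0.000123) and 1.15 ± 0.23 for Col4a2 (adjusted p = 0.00319). Over 6 libraries the values were 0.94 ± 0.44 and 0.77 ± 0.30, and neither passed. Per kilobase, Col4a1 was 1.93, 1.90 and 1.93 times Col4a2 in Atg5 CD11cKO libraries, against 0.916 in WT 21, 1.87 in WT 22 and 2.10 in WT 23. WT 21 alone had as much Col4a2 as Col4a1, with an exact 95% interval of 0.708 to 1.18. The genes share 22 bases of exon on opposite strands, 0.332% of the exons of Col4a2, and no source used here says whether the counting took strand into account.

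Sinusoidal endothelial cells line the liver's capillaries and are also known to make collagen IV. Of 15 endothelial markers, 10 rose and 3 fell without WT 23 (86.7%, where 31% of all genes were called). All were detected in every library, and they summed to 419.9, 389.6 and 391.9 CPM in Atg5 CD11cKO libraries, against 376 and 384.7 CPM in WT 21 and 22 and 408 CPM in WT 23. Bmp2 and Egfl7 rose (log2 fold change 1.27 and 1.21), while Dnase1l3 and Pecam1 fell (-0.91 and -0.58). The markers thus moved in both directions, and their part in the collagen IV result was not tested. Of the other collagen IV chains, Col4a3, Col4a4 and Col4a5 were tested and not called, with at most 0.995 CPM in any library, and Col4a6 was not tested. Col4a3 had 25, 14 and 8 counts in Atg5 CD11cKO libraries, against 4 and 2 counts in WT 21 and 22 and 25 counts in WT 23, and shares 5.65% of its exon bases with C430014B12Rik on the other strand.

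Both genes that fell encode collagens that were classed here apart from the fibrillar collagens and the collagen IV chains. Col18a1 (chromosome 10, from 77052178 to 77166548) encodes collagen XVIII, a multiplexin whose C-terminal fragment is endostatin. It had 6.25, 5.65 and 3.62 CPM in Atg5 CD11cKO libraries, against 20.9 and 22.6 CPM in WT 21 and 22 and 5.86 CPM in WT 23. It was the highest collagen per kilobase in WT 21 and 22, and it fell by 2.06 on the log2 scale (SE 0.21, adjusted p = 1.66e-05) without WT 23. Over 6 libraries the log2 fold change was -1.67 ± 0.49 (adjusted p = 0.338), and with DESeq2 it passed (adjusted p = 0.0242). Hepatocytes are known to express Col18a1. All 18 hepatocyte markers fell without WT 23, where 15.1% of all genes did, with a median log2 fold change of -2.40. Their part in the fall of Col18a1 was not tested. The other multiplexin, Col15a1, had 76, 71 and 74 counts in Atg5 CD11cKO libraries, against 40, 35 and 63 counts in WT 21, 22 and 23. Its groups did not overlap, while its log2 fold change of 1.02 ± 0.36 without WT 23 did not pass (adjusted p = 0.0527).

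Col17a1 encodes collagen XVII, a transmembrane collagen of hemidesmosomes. It had 2.79, 2.78 and 3.24 CPM in Atg5 CD11cKO libraries, against 4.73, 6.66 and 3.28 CPM in WT 21, 22 and 23. WT 23 was only just above Atg5 CD11cKO 27, and the log2 fold change was -0.95 ± 0.26 (adjusted p = 0.0163) without WT 23. The call was lost when WT 22, Atg5 CD11cKO 25 or Atg5 CD11cKO 26 was also left out, with adjusted p of 0.137, 0.0541 and 0.0503. The other tested transmembrane collagens, Col13a1 and Col23a1, were positive and not called, with log2 fold changes of 0.80 ± 0.28 (adjusted p = 0.0516) and 0.50 ± 0.26 (adjusted p = 0.176). Without WT 23, none of the 3 tested collagen VI chains or the 4 tested FACIT collagens (which bind to the surface of fibrils) was called. The 2 tested short-chain collagens and Col7a1 were not called either, where 31% of all genes were called. All of these genes stayed under 2 CPM in every library. Over 6 libraries the short-chain collagens were not tested and the others were not called, where 0% of all genes were. Col6a3 had 8, 4 and 10 counts in Atg5 CD11cKO libraries, against 21, 7 and 45 counts in WT 21, 22 and 23, so that its highest library was WT 23.

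Collagens were called in both directions, and the sum over all 44 did not separate the groups as labelled. It was 83.1, 78.9 and 75.1 CPM in Atg5 CD11cKO libraries, against 65.0 and 70.9 CPM in WT 21 and 22 and 79.7 CPM in WT 23. WT 21 and 22 thus lay below all 3 Atg5 CD11cKO libraries, and WT 23 lay within their range. The means were 79.0 ± 4.02 and 71.9 ± 7.39 CPM (SD, n = 3 each), and the difference of 7.13 CPM gave p = 0.3 in the two-sided exact permutation test, which cannot go below 0.1. The 6 collagen IV chains summed to 24.4, 28.1 and 21.9 CPM, against 9.49, 10.4 and 23.1 CPM in WT 21, 22 and 23. The 2 multiplexins summed to 8.69, 7.82 and 5.95 CPM, against 22.2, 23.6 and 7.86 CPM. The plot of summed levels sets these beside the markers of other cells.

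**Figure D4:**
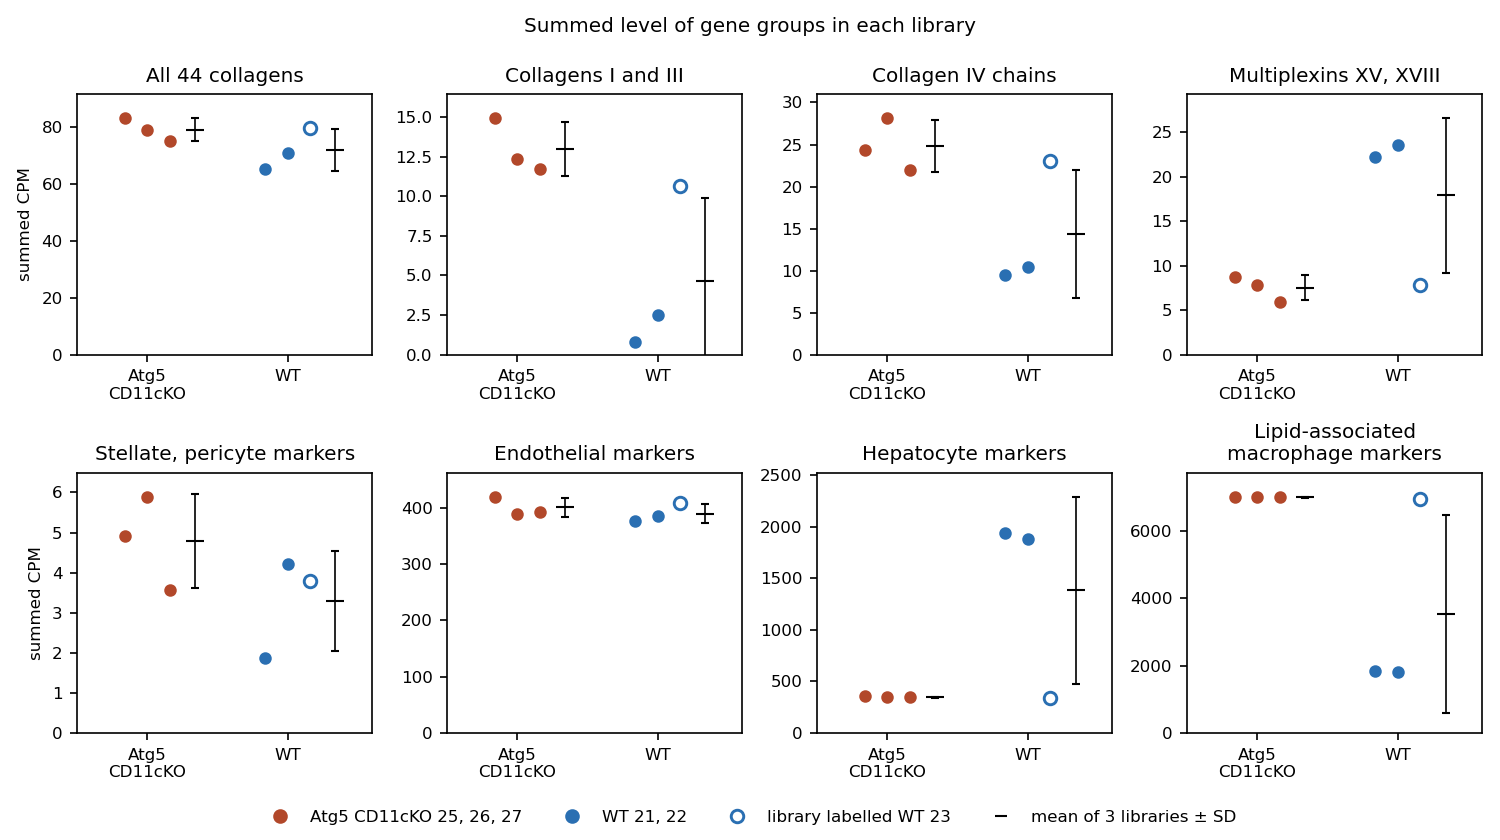
Summed CPM (y axis, from 0) of 5 groups of members and 3 marker lists in each library, with Atg5 CD11cKO at the left and WT at the right. Filled points are libraries, the open point is the library labelled WT 23, and bars are the mean of 3 libraries ± SD, cut off at 0. All 44 collagens lie between 65.0 and 83.1 CPM in every library, with WT 21 and 22 the lowest. Collagens I and III, the collagen IV chains and the multiplexins separate WT 21 and 22 from the rest by a wider gap.

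Ordered by level per kilobase, Ecm1 came first in both groups, at 16.1 ± 1.50 CPM per kb in Atg5 CD11cKO libraries (SD, n = 3) and 8.82 ± 0.56 in WT 21 and 22 (SD, n = 2). In Atg5 CD11cKO libraries it was followed by Fn1 (7.32 ± 1.12), Sparc (4.66 ± 0.38) and Col4a1 (2.16 ± 0.24). Col23a1 (1.28 ± 0.18), Col4a2 (1.12 ± 0.13) and Dcn (1.06 ± 0.04) came next, and the differences between them were not tested. In WT 21 and 22 the second place was held by Col18a1 (3.10 ± 0.16), before Sparc (2.23 ± 0.34) and Fn1 (1.74 ± 0.01). Col3a1 was in place 12 in Atg5 CD11cKO libraries and in place 36 in WT 21 and 22.

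Lysyl oxidases cross-link collagen and elastin. Lox had 10, 17 and 9 counts in Atg5 CD11cKO libraries, against 1 count each in WT 21 and 22 and 24 counts in WT 23. The rate was 12.4-fold higher in Atg5 CD11cKO libraries than in WT 21 and 22, with an exact 95% counting interval of 3.19 to 106, and the highest library was WT 23. The log2 fold change was 3.47 ± 0.997 (adjusted p = 0.0209) without WT 23. The call was lost when WT 21 or WT 22 was also left out (adjusted p = 0.115 and 0.118) and on the normalized values with a pseudocount of 1, and Lox was not tested without Atg5 CD11cKO 25 or 26 and had no adjusted p in DESeq2. Loxl2 had 11, 40 and 26 counts, against 11, 2 and 34 counts in WT 21, 22 and 23, and was not called (adjusted p = 0.102). It overlaps the antisense gene Gm27177, which reached 51.3 counts, so its counts are uncertain.

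None of the 6 stellate cell and pericyte markers was called by edgeR without WT 23, where 31% of all genes were called. Over 6 libraries none was called either, where 0% of all genes were. Without WT 23, 5 of the 6 were positive, with a median log2 fold change of 0.81, against -0.01 over all genes. Lrat, which encodes the enzyme that esterifies retinol for storage, had 0.609, 0.886 and 0.252 CPM in Atg5 CD11cKO libraries, against 0.218, 1.48 and 0.0637 CPM in WT 21, 22 and 23. The groups overlapped, and its highest library was WT 22 and its lowest WT 23. Its log2 fold change of -0.54 ± 0.78 without WT 23 was 1.41 when WT 22 was also left out. Reln, which encodes the secreted glycoprotein reelin, had 0.385, 1.41 and 0.283 CPM, against 0.249, 0.326 and 0.859 CPM in WT 21, 22 and 23, and its difference rested on Atg5 CD11cKO 26. Pdgfrb, the receptor for platelet-derived growth factor B, had 26, 13 and 43 counts, against 5, 8 and 34 counts in WT 21, 22 and 23. Its log2 fold change of 2.11 ± 0.74 without WT 23 missed the threshold (adjusted p = 0.0501) and passed when libraries were scaled by their totals. Des and Rgs5, which encode desmin and a regulator of G protein signalling in pericytes, and Colec11, a secreted lectin, had log2 fold changes of 0.57 ± 0.53, 0.44 ± 0.67 and 1.05 ± 0.95 without WT 23. Together the 6 markers summed to 4.90, 5.90 and 3.55 CPM, against 1.87, 4.20 and 3.79 CPM in WT 21, 22 and 23, and these sums overlapped.

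Low members varied between the Atg5 CD11cKO libraries. Colec11 had 45, 18 and 5 counts and Col5a1 had 38, 24 and 4 counts in Atg5 CD11cKO 25, 26 and 27. Col5a2 peaked in the second library, with 11, 41 and 3 counts, and Col9a3 in the last, with 6, 18 and 42 counts. Of the 25 tested members that stayed under 2 CPM in every library, the median coefficient of variation among Atg5 CD11cKO libraries was 54%, where counting error alone gave 22.7%. In the 18 others it was 14.7%, where counting error gave 7.87%.

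Other stellate cell, fibroblast and mural markers reached at most 7.002 CPM (Vipr1, in WT 23). Of 25, 10 stayed under 1 CPM in every library, among them Pdgfra, Hand2, Cygb and Gfap, and Gfap and Dpt were at 0 in at least 1 library. Of the 17 tested without WT 23, 2 rose (Acta2 and Myh11) and 2 fell (Adamtsl2 and Angptl6), or 23.5%, where 31% of all genes were called. Over 6 libraries edgeR called 0 of 16, with 0 also at an unadjusted p under 0.05, where 5.21% of all genes were higher and 9.17% lower. Acta2, the smooth muscle actin of activated stellate cells and of vessel walls, had 3.69, 3.85 and 3.71 CPM in Atg5 CD11cKO libraries, against 1.93, 1.07 and 3.18 CPM in WT 21, 22 and 23 (log2 fold change 1.33 ± 0.34 without WT 23, adjusted p = 0.0115). The 25 genes summed to 28.6 to 33.8 CPM in Atg5 CD11cKO libraries and 28.0 to 38.6 CPM in WT libraries. Mesothelial cells also make collagens, and of their 6 tested markers 0 were called by edgeR in either comparison, with 1 at an unadjusted p under 0.05 without WT 23. At that unadjusted p, 20.8% of all genes were higher and 20% lower. The mesothelial markers summed to 11.9 to 15.3 CPM in Atg5 CD11cKO libraries, against 9.74 to 11.3 CPM in WT libraries, with Upk1b at 0 in at least 1 library. The part of these cells in the collagen values was not tested.

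Genes that fold, modify and trim collagen did not move in 1 direction. Of 22 tested without WT 23, 5 rose and 3 fell (36.4%, where 31% of all genes were called), with a median log2 fold change of -0.03. P4ha1, a subunit of prolyl 4-hydroxylase, had 84.5, 89.5 and 82.6 CPM in Atg5 CD11cKO libraries, against 37.8 and 39.2 CPM in WT 21 and 22 and 88.5 CPM in WT 23 (log2 fold change 1.16 ± 0.07, adjusted p = 3.51e-07 without WT 23). Plod3 and Plod1, lysyl hydroxylases, and Colgalt1, a collagen galactosyltransferase, rose by 1.18, 0.48 and 0.30 on the log2 scale. Serpinh1, the collagen chaperone HSP47, had 9.04, 7.15 and 9.81 CPM, against 5.29, 3.32 and 7.35 CPM in WT 21, 22 and 23, and rose by 1.02 ± 0.25 (adjusted p = 0.00985). Bmp1 and Pcolce2, a procollagen C-proteinase and its enhancer, fell (-1.69 and -1.07), as did Mia3, which helps to export procollagen. The 24 genes of the list summed to 1345 to 1387 CPM in Atg5 CD11cKO libraries and 1266 to 1320.0 CPM in WT libraries.

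Among 34 other matrix glycoproteins and proteoglycans, 22 were tested without WT 23, of which 8 rose and 2 fell (45.5%, where 31% of all genes were called). Their median log2 fold change was 0.85, against -0.01 over all genes. Spp1, which encodes osteopontin, rose by 2.34 ± 0.04, Loxl3, a lysyl oxidase-like enzyme, by 1.57 ± 0.14, and Emilin2, an elastic fibre glycoprotein, by 0.64 ± 0.05. Vtn, the plasma protein vitronectin made by hepatocytes, fell by 3.28 on the log2 scale. Of 14 tested partners of collagen IV in basement membranes, such as laminins and nidogens, only Nid1 rose and none fell (7.14%, against 31% of all genes). Nid1 was at 5.06, 4.71 and 8.37 CPM, against 3.20, 2.07 and 7.54 CPM in WT 21, 22 and 23 (log2 fold change 1.20 ± 0.33, adjusted p = 0.0158 without WT 23). Of 9 tested collagen receptors, the integrin subunit Itgb1 (0.50) and the scavenger receptor Cd36 (0.38) rose, and the integrin subunit Itga1 (-0.87) and the inhibitory receptor Lair1 (-0.27) fell. The called receptors were 44.4% of the 9, against 31% of all genes. Over 6 libraries, edgeR called 0 genes of these lists, and at an unadjusted p under 0.05 it had 3 of 21 other matrix genes, 0 of 13 basement membrane partners, 1 of 9 receptors and 3 of 22 folding genes. Of all genes, 5.21% were higher and 9.17% lower at that unadjusted p.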

How the data were processed

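The authors deposited estimated counts per gene for 6 libraries, for which the submitters' processing notes name mm10, STAR 2.5.3a, Partek and bcl2fastq 2.17.1.14. No source used here gives the counting step, its annotation or its use of strand. A share of 32.9% of the values was whole (tolerance 1e-06). The authors also deposited a normalized signal, the count plus 1 times 1 factor per library, for 20388 genes, used here only for an alternative. In the count table, 25 symbols turned into dates were recovered from GENCODE vM21 coordinates.

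Counts were rounded, filtered with filterByExpr, scaled by TMM and tested with the quasi-likelihood F test of edgeR 4.0.16 in R 4.3.3, with Benjamini-Hochberg adjustment over all genes at 0.05 and no covariate. The SE was taken from F as the absolute log2 fold change over its square root. Exon lengths are unions of GENCODE vM21 exons, and all 59 members matched. Python 3.11.15 and matplotlib 3.10.9 made the figures. Libraries held 31064570 to 34034675 counts, and replicates differed by more than sampling noise.

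Values in every library are given for members called in either comparison that reach 5 CPM in a library, for members not called that reach 20 CPM, and for Lrat, Reln, Col1a1, Col1a2 and Col3a1. Of each other list up to 4 called genes are named by adjusted p. Other genes are named as further examples, chosen after their values were seen. The members and lists were chosen with earlier results of these data known. Alternatives were DESeq2 1.42.0, scaling by RLE or by totals alone, testing all genes or only those above 1 CPM, limma-voom, limma 3.58.1 on the log2 normalized values after adding 1 or 0.1, and the omission of each library. Of the marker lists, cholangiocyte markers summed to 52.8 to 60.1 CPM in Atg5 CD11cKO libraries and 55.7 to 66.2 CPM in WT libraries, platelet markers to 31.6 to 34.8 and 20.7 to 37.9 CPM, pancreatic islet markers to 0.520 to 0.975 and 0.266 to 0.700 CPM, and dendritic cell and macrophage markers to 55458 to 57332 and 52373 to 54709 CPM. Protein sequences were not analysed here.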

Additional observations from a re-analysis of the deposited data

How the results depend on the processing

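Over 6 libraries, edgeR called 0 genes and 0 members in each direction under the other scalings, filters and limma fits. DESeq2 called 37 genes higher and 305 lower, and 1 member in each direction (the cause was not tested). Leaving out 1 library gave 0 to 2900 genes higher, 0 to 2755 lower, 0 to 10 members higher and 0 to 2 lower, and every count above 0 came from the omission of the library labelled WT 23. Without WT 23, leaving out a further library gave 2353 to 2659 genes higher, 2170 to 2355 lower, 8 to 11 members higher and 1 to 2 lower, with 1 lower without WT 22, Atg5 CD11cKO 25 or Atg5 CD11cKO 26. Where 1 WT library was left, it was assumed to vary like the others. Fn1, Ecm1, Sparc, Col1a1, Col3a1, Col4a1, Col4a2 and Col18a1 were called without WT 23 under every alternative run, while Bgn, Lum, Lox and Col17a1 lost their call or were not tested under some. The alternatives were followed for the log2 fold changes of 15 members, the named ones with Lum and Lox, and the direction changed for Lrat, Reln and Lox, all under 2 CPM in every library. Between the comparisons, 2 members not called in either, Col20a1 (0.29 without WT 23, -0.03 over 6 libraries) and Col9a3 (0.06 and -0.10), also differed in sign. Over 6 libraries the log2 fold change of Lrat, -0.02, was 0.78 with limma-voom, 0.067 and 0.44 with limma on the normalized values at a pseudocount of 1 and 0.1, 2.02 without WT 22 and 0.35 without Atg5 CD11cKO 27, and ranged between -0.54 and 2.02 when 1 library was left out. That of Reln was -0.51 without Atg5 CD11cKO 26 (range -0.51 to 1.26). That of Lox was -0.07 without WT 21 and -0.081 without WT 22 (range -0.081 to 3.47). Without WT 23, that of Lrat was 1.41 without WT 22 as well and -1.33 without WT 21 as well. The difference in summed collagens ranged between 3.70 and 11.04 CPM (without WT 21 and without WT 23) when 1 library was left out and was 7.17 to 7.50 CPM under other scalings. No paired analysis was possible because the replicate numbers of the groups are not shared. At these depths, 3 counts correspond to 0.0888 to 0.0962 CPM, which limits the 26 members under 1 CPM.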
